A study of Mus musculus with 20 samples.

Results

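Cluster 1 is 1 of the 2 groups into which the consensus clustering method SC3 divided primary mouse ovarian surface epithelial (OSE) cells, and its cells were compared here between E2 treatment and vehicle. Members were taken by the deposited cluster label, which put 168 of 589 cells in cluster 1. Of these, 126 were control cells (38.3% of the 329 control cells) and 42 were E2-treated cells (16.2% of the 260 treated cells). The other 421 cells, 203 control and 218 E2-treated, are called responsive cells below. All cells were cultured OSE cells from mouse ovaries, held in hormone-free medium for 48 hours. Control cells then received ethanol at a final 0.0002%, and treated cells received 100 nM E2, for 15 days. The strain, age and number of the mice behind these cells are not given in the sources used here. Cells were caught on 1 microfluidic circuit with 20 columns, with control cells in columns 1 to 10 and E2-treated cells in columns 11 to 20, and each column made 1 cDNA library. Control cells were loaded through the left inlet and E2-treated cells through the right one, so treatment and side of the circuit cannot be told apart. Nothing says how many cultures lay behind each treatment, and p-values here measure the spread between column libraries only. The cluster label was itself made from the expression values of these cells, so a treated cell whose expression moved far enough would carry the other label.

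E2 is the main natural estrogen. The OSE is the single layer of mesothelium-like cells that covers the ovary, and E2 binds the estrogen receptors, transcription factors that recruit coregulators and raise or lower the transcription of target genes. Mitochondria carry their own small genome, which codes for subunits of the respiratory complexes, while the other subunits and the proteins that copy and read mitochondrial DNA come from nuclear genes.

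For each column with 3 or more cluster 1 cells, the reads of those cells were added up gene by gene. This gave 10 control sums of 8 to 18 cells and 712198 to 2224038 reads, and 7 E2 sums of 3 to 9 cells and 233995 to 771505 reads. Column 13 had no cells, and the 2 cells of column 12 and the 1 cell of column 14 were left out. The smallest sum, of column 15, held 3 cells. Levels are CPM, a gene's reads relative to the sum's reads on genes that passed a filter on low counts. They are scaled with the trimmed mean of M values (TMM) and are not per length. The TMM factor was 0.784 for column 15 and 0.947 to 1.07 for the other 16 sums. All 40 row barcodes of the circuit occurred in more than 1 column, since a cell is named by its column and its row together. No doublet caller was run. Cluster 1 cells carried fewer reads after E2, with 114528 ± 16504 reads per cell (SD, n = 10 libraries) in control and 90446 ± 13725 (n = 7) in E2 libraries (exact two-sided permutation over libraries, adjusted p = 0.0147 over 5 measures). Genes detected per cell were also fewer, 4223 ± 305 in control and 3799 ± 399 in E2 libraries, a difference of −424 (exact permutation, n = 10 and 7, adjusted p = 0.044). That difference missed the threshold at 5 or more cells per column (−330, exact permutation, adjusted p = 0.107) and in 12 of the 17 comparisons that left out 1 library, all but those without control columns 6 or 7 or E2 columns 17, 18 or 20. After thinning each cell to 20000 reads, genes detected were 2967 ± 159 in control and 2762 ± 277 in E2 libraries. That difference, −205, was not past the threshold (exact permutation, n = 10 and 7, adjusted p = 0.0976). The part of depth and genes detected in the results that follow was not tested except where depth is matched.

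The cells of both treatments carried some OSE genes together with some genes of fibroblasts, while other markers of both lists were low. Upk3b, a uroplakin of mesothelial cells, had 2019 ± 333 CPM in control and 2142 ± 390 CPM in E2 sums, and Krt7, a keratin of simple epithelia, had 1122 ± 264 and 918 ± 200 CPM. Of 13 OSE markers tested, none was called between treatments (background 0.0839%). Col1a2, a chain of type I collagen listed as a fibroblast marker, had 2005 ± 363 and 2141 ± 641 CPM in cluster 1, against 14.2 and 9.9 CPM in responsive cells. Of 8 fibroblast markers tested none was called between treatments (background 0.0839%). The OSE marker Krt19 was far lower in cluster 1, at pooled levels of 26.2 CPM in control and 21.1 CPM after E2, against 407 and 626 CPM in responsive cells. So was the fibroblast marker Thy1, at 9.58 and 0.569 CPM against 169 and 24.6 CPM. Of 11 leukocyte markers 6 were in the deposited table, and they summed to between 20.2 and 102 CPM in control and between 0 and 132 CPM in E2 sums. Of 10 endothelial markers 6 were there, and they summed to between 381 and 710 CPM and between 340 and 675 CPM. Most of these endothelial reads were those of Pecam1, with 341 to 1212 reads in control and 115 to 368 in E2 sums. Esam, Vwf and Tie1 had at most 29 reads in any sum. Of 10 muscle and pericyte markers 7 were there. They summed to between 3.09 and 1463 CPM in control and between 0 and 33.0 CPM in E2 sums, and none of them passed the filter on low counts. No called gene is in these lists, and the part of such cells in the results was not tested. Transcripts of responsive cells were also followed. The 20 transcripts above 100 CPM in responsive control cells with the lowest relative level in cluster 1 control cells summed in cluster 1 to 1.07% to 34.4% of their level in responsive cells of the same treatment over the control libraries, and to 0.594% to 21.2% over the E2 libraries. Control column 9 and E2 column 15 had the highest of these shares in their groups. The control values chose these 20 transcripts, so a low share in control follows from the choice. The E2 values did not choose them, so the control and E2 ranges are not alike.

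Few genes differed between E2 and control within cluster 1. A gene was called where the adjusted p of edgeR's quasi-likelihood test was below 0.05 and the absolute log2 fold change was above 0.5. Of 8340 genes tested, 7 were called (0.0839%). Ctnnd1, mt-Cytb and mt-Co2 were higher with E2 (0.036%), and Hapln4, Secisbp2, Nkx6-2 and Rps6ka4 were lower (0.048%). At an unadjusted p below 0.05 there were 622 genes (7.46%), 315 higher and 307 lower, and the median log2 fold change of all genes was −0.06. Under the same rule 141 of 10265 genes (1.37%) were called among responsive cells, which gave 10 control and 9 E2 sums of 2136904 to 3904027 reads. The largest E2 sum of cluster 1 held 771505 reads, less than the smallest sum of responsive cells, so the counts of called genes in the 2 populations rest on different depths.

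The share of reads on mitochondrial genes was higher in cluster 1 cells treated with E2. In the control libraries the mean over cells ranged from 2.07% to 3.05%, with a median of 2.66%. In the E2 libraries it ranged from 3.09% to 4.92%, with a median of 3.46%. On this measure every E2 library lay above every control library. The means were 2.63% ± 0.34 (n = 10) and 3.63% ± 0.63 (n = 7), a difference of 1.00 percentage points (exact two-sided permutation, p = 0.000103, which is the lowest value this test can take with 10 and 7 libraries, and adjusted p = 0.000514 over 5 measures). Leaving out any 1 of the 17 libraries kept the difference between 0.787 and 1.09 percentage points, with adjusted p from 0.000874 to 0.00125 in the same exact test. The left-out cells of columns 12 and 14 had 3.41% and 3.76%. The measure does not count the nuclear pseudogene Gm29216, described below, whose reads largely cannot be told from those of a mitochondrial gene. With Gm29216 added to the 13 protein-coding mitochondrial genes the ranges overlapped, from 3.22% to 4.58% in control and from 4.08% to 7.48% in E2 libraries. The means were then 3.97% and 5.35% (exact permutation, n = 10 and 7, unadjusted p = 0.000823). The authors had removed cells with a high mitochondrial share before deposit, so the upper extremes are not in these values.

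The shift was larger in cluster 1 than in the responsive cells of the same columns. Responsive cells had 2.23% ± 0.31 in the 10 control libraries and 2.56% ± 0.21 in the 9 E2 libraries (exact permutation, adjusted p = 0.0207), and these ranges overlapped, from 1.71% to 2.70% and from 2.21% to 2.85%. Cluster 1 exceeded the responsive cells of its own column by 0.396 ± 0.310 percentage points in control and by 1.08 ± 0.62 in E2 libraries. That excess differed between treatments by 0.682 percentage points (exact two-sided permutation, n = 10 and 7, adjusted p = 0.0036). Since reads per cell also differed, the share was compared among cluster 1 cells with 60000 to 120000 reads, a range chosen after the depths were seen. There it was 2.73% ± 0.39 in 10 control and 3.75% ± 0.85 in 5 E2 libraries (exact permutation, adjusted p = 0.0333), while reads per cell in these libraries were 95641 ± 7133 and 89794 ± 12042. The ranges then overlapped.

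**Figure D1:**
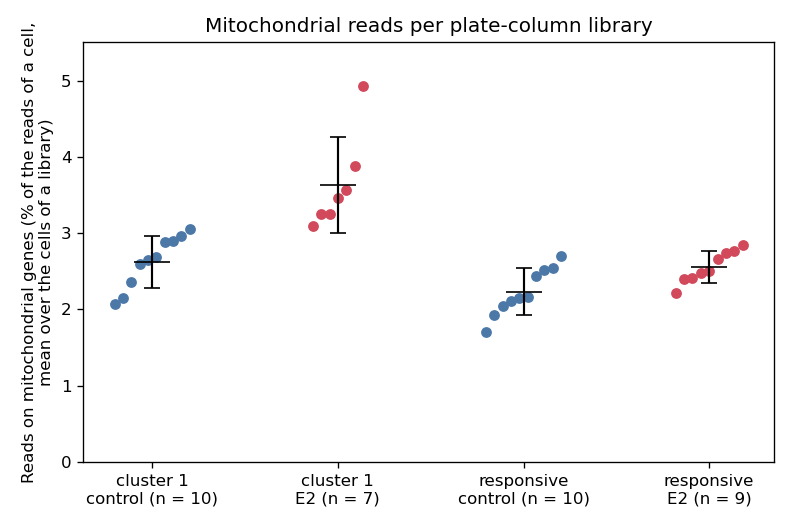
Percent of a cell's reads on mitochondrial genes, averaged over the cells of a library, for cluster 1 and responsive cells of control (blue) and E2 (red) columns. Each point is 1 plate-column library with at least 3 such cells, and the horizontal and vertical black lines give the mean and SD. In cluster 1 the E2 libraries, from 3.09% to 4.92%, all lie above the highest control library at 3.05%. The nuclear pseudogene Gm29216 is not counted, and with it the ranges overlap.

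The rise was spread over several of the 13 protein-coding mitochondrial genes and was unequal among them. Their summed level was 26280 ± 3602 CPM in control sums (20363 to 30865) and 38199 ± 7478 CPM in E2 sums (30396 to 51430), a ratio of 1.45 (exact permutation, n = 10 and 7, adjusted p = 0.00154 over 10 mitochondrial quantities). In responsive cells the ratio was 1.16 (exact permutation, n = 10 and 9, adjusted p = 0.0222). In cluster 1 the estimated log2 fold change was above 0 for 11 of the 13 genes, with a median of 0.39, beside −0.06 over all genes. Of the 13, 2 were called (background 0.036% called higher) and 6 had an unadjusted p below 0.05 (background 3.78% higher), all higher. None of the 13 was called for a different change between cluster 1 and responsive cells.

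Cytochrome b, the mitochondrially encoded subunit of complex III, gave the clearest separation. mt-Cytb (chrM:14145-15288, plus strand, GRCm38) ranged from 2451 to 3785 CPM in control sums, with a median of 3068, and from 4009 to 9964 CPM in E2 sums, with a median of 4875. No E2 sum reached down to the control range, although the highest value, that of column 15, stood apart from the rest. The log2 fold change was 0.83 with a standard error of 0.16 (edgeR, adjusted p = 0.0415). It was 0.63 without column 15 (edgeR, adjusted p = 0.0352). In responsive cells mt-Cytb rose by a log2 fold change of 0.49 (SE 0.12, edgeR adjusted p = 0.0265), which is just under the fold used for a call, and the difference between the 2 changes was not resolved (0.29, SE 0.21, edgeR adjusted p = 0.668).

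Cytochrome c oxidase, complex IV, has 3 subunits from mitochondrial DNA. mt-Co2 (chrM:7013-7696, plus strand) had 3700 to 5583 CPM in control sums (median 4690) and 4798 to 12834 CPM in E2 sums (median 7290). In 6 of 7 E2 sums it was above the highest control sum, and column 17 alone lay within the control range. The log2 fold change was 0.79 (SE 0.16, edgeR adjusted p = 0.0415), against 0.25 (SE 0.11, edgeR adjusted p = 0.448) in responsive cells. mt-Co3 was at 7898 ± 1461 CPM in control and 11059 ± 2098 CPM in E2 sums, with a log2 fold change of 0.49 that missed the threshold (edgeR adjusted p = 0.22). The calls of mt-Cytb and mt-Co2 were lost when any 1 control library was left out (adjusted p up to 0.44 over all alternatives), and they were also lost without E2 columns 11, 16, 19 or 20, with log2 fold changes that stayed between 0.63 and 1.01 for mt-Cytb and between 0.64 and 0.95 for mt-Co2.

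The complex I subunits moved less evenly. mt-Nd6, the only one of the 13 read from the other DNA strand, had 523 to 860 CPM in control and 652 to 1807 CPM in E2 sums, with 6 of 7 E2 sums above the control range (log2 fold change 0.71, SE 0.20, edgeR adjusted p = 0.265). mt-Nd1 had a log2 fold change of 0.48, mt-Nd2 of 0.47, mt-Nd3 of 0.36, mt-Nd5 of 0.34 and mt-Nd4 of 0.21, with adjusted p from 0.633 to 0.945. mt-Nd4l had −0.79 with a standard error of 0.80, from 51 of 126 control cells and 14 of 42 E2 cells with a read. Of the ATP synthase subunits, mt-Atp6 had 0.39 (SE 0.18) while mt-Atp8, which overlaps it on the genome, had 60.6 ± 39.9 CPM in control and 60.7 ± 25.8 CPM in E2 sums. The direction for mt-Atp8 and mt-Nd3 changed with the scaling or with 1 library left out.

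**Figure D2:**
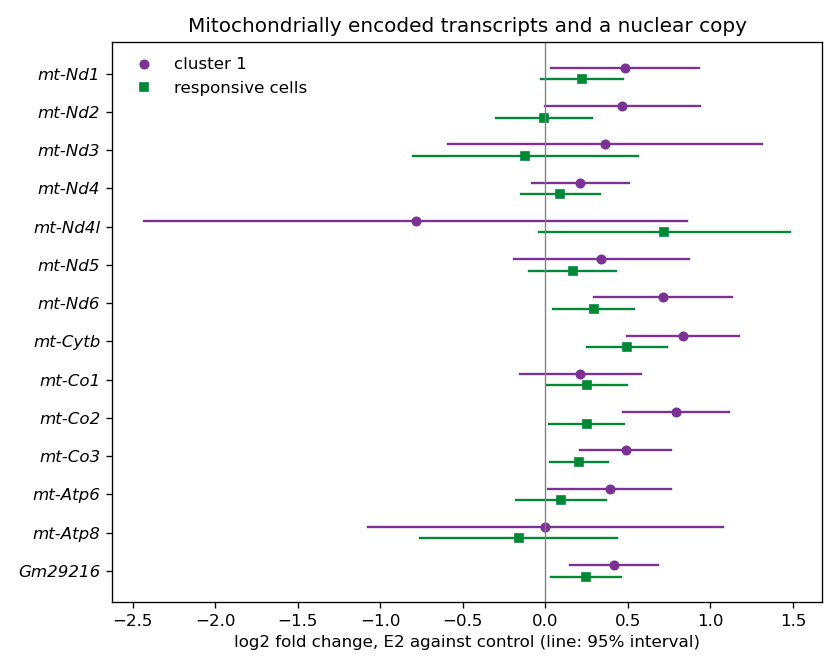
Log2 fold change of E2 against control with its 95% interval for the 13 mitochondrially encoded genes and the pseudogene Gm29216, in cluster 1 (purple circles) and in responsive cells (green squares). In cluster 1 mt-Cytb at 0.83, mt-Co2 at 0.79 and mt-Nd6 at 0.71 lie farthest to the right, and the intervals of both populations overlap for every gene.

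mt-Co1, the catalytic subunit of complex IV, shares its 3′ part with a nuclear pseudogene, and the assay reads 3′ ends. Its log2 fold change in cluster 1 was 0.21 (SE 0.18, edgeR adjusted p = 0.881), from 796 ± 141 CPM in control and 922 ± 205 CPM in E2 sums. The pseudogene Gm29216 (chr1:24615706-24616197, minus strand, GRCm38) is annotated as unprocessed and was listed at 13252 ± 1521 CPM in control and 17680 ± 4602 CPM in E2 sums (log2 fold change 0.42, edgeR adjusted p = 0.327). Its 492 bases line up without gaps with bases 1054 to 1545 of the mt-Co1 transcript, and 6 bases differ, all within the first 13. The sequences are shown because reads from the stretch that follows cannot be told apart by sequence. The first 60 bases of the shared stretch, from the GENCODE M21 transcripts and 5′ to 3′, have the differing bases in capitals.
mt-Co1: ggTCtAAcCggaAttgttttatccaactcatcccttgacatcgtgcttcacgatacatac
Gm29216: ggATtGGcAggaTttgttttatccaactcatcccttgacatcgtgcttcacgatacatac
The last 60 bases before the 3′ end are the same in both.
mt-Co1 and Gm29216: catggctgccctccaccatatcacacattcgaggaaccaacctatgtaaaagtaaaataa

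Counts of mt-Co1 and Gm29216 were therefore also added together, an alternative chosen after the data were seen. The sum was 14048 ± 1598 CPM in control (11178 to 16895) and 18601 ± 4678 CPM in E2 sums (11804 to 26430), a ratio of 1.32 (exact permutation, n = 10 and 7, adjusted p = 0.0222). In responsive cells the ratio was 1.19 (exact permutation, n = 10 and 9, adjusted p = 0.0242). All 13 genes with Gm29216 summed in cluster 1 to 39533 ± 4909 CPM in control (up to 45760) and 55879 ± 10327 CPM in E2 sums (from 44966). The ratio was 1.41 (exact permutation, n = 10 and 7, adjusted p = 0.00154), and the ranges overlapped. mt-Co2 has a copy of the same kind, Gm28661 (chr1:24614885-24615565, minus strand), which matches bases 1 to 681 of its 684 without a difference. Gm28661 was not tested here, so the count listed for mt-Co2 was not set against it.

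Nuclear genes of the same complexes had a median change near 0. Of 88 nuclear respiratory chain genes tested none was called (background 0.0839%), 48 had an estimate above 0 and the median log2 fold change was 0.04. The 3 with an unadjusted p below 0.05, beside 3.78% higher among all genes tested, were higher: Uqcrb of complex III at 0.54, Cox5a of complex IV at 0.50 and Ndufb8 of complex I at 0.47 (edgeR adjusted p from 0.521 to 0.658). These 3 were chosen after their values were seen. Of 17 genes that copy, read or process mitochondrial DNA and RNA none was called, and the median was −0.17.

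The 4 lower genes had reads in a minority of control cells. After E2, Hapln4, Secisbp2 and Nkx6-2 had reads in 1 or 2 of 42 cells, and Rps6ka4 in 12 of 42, at a lower level. All 4 passed the filter on low counts through the control sums alone. Groups that did not overlap with E2 lower were found for 7 of the 8340 genes tested (0.0839%), and these 4 are among them. Hapln4 (ENSMUSG00000007594, chr8:70083457-70090862, plus strand), a link protein that ties hyaluronan to proteoglycans, ranged from 17.7 to 66.0 CPM in the 10 control sums, with a median of 40.7, and was 0 in all 7 E2 sums. The limit of 3 counts over the 7 E2 sums was 0.861 CPM. Against it Hapln4 was at least 48.7-fold lower in these sums, by counting error only (edgeR, adjusted p = 0.00765). It was found in 25 of 126 control cells and in 1 of 42 E2 cells, the latter a left-out cell of column 12 with 18 reads. Hapln4 stayed called without any 1 of the 17 libraries, but it was not called with sums of at least 1 cell, which include column 12 (edgeR, adjusted p = 0.899).

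Secisbp2 (ENSMUSG00000035139, chr13:51651697-51684044, plus strand) binds the RNA element that lets ribosomes insert selenocysteine. It ranged from 13.2 to 69.6 CPM in control sums, with a median of 26.1, and was 0 in all 7 E2 sums. By the same counting bound it was at least 33.9-fold lower in these sums (edgeR, adjusted p = 0.0284). There were reads in 21 of 126 control cells and in 1 of 42 E2 cells, a left-out cell of column 14 with 2 reads. In responsive cells its level was 8.62 CPM in control and 19.1 CPM in E2 sums, and the change there was not called (edgeR, adjusted p = 0.654). The call in cluster 1 was lost without E2 column 11 or 19. Of 17 genes of selenoprotein synthesis tested, Secisbp2 alone was called and the median was −0.02. Gpx1 and Gpx4, abundant selenoproteins, had log2 fold changes of −0.02 and −0.21.

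Nkx6-2 (ENSMUSG00000041309, chr7:139579376-139582797, minus strand), a homeobox transcription factor known from the nervous system, ranged from 8.11 to 34.4 CPM in control sums, with a median of 15.6. It had 254 reads in the control sums and 1 read in the E2 sums, in column 18. The pooled level was 59.5-fold lower with E2, with a counting interval from 10.6 to 2357 (edgeR, adjusted p = 0.0343). Reads were found in 44 of 126 control cells and 2 of 42 E2 cells. Responsive cells also had a lower estimate, −1.04 (SE 0.50, edgeR adjusted p = 0.497), from 13.9 CPM in control and 6.72 CPM in E2 sums. In cluster 1 the call was kept without each control library and was lost without 6 of the 7 E2 libraries, all but column 18.

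Rps6ka4 (ENSMUSG00000024952, chr19:6829085-6840636, minus strand) codes for a kinase, also known as MSK2, that acts below the MAP kinases and phosphorylates CREB and histone H3. It ranged from 11.5 to 130 CPM in control sums, with a median of 77.9, and from 0 to 11.0 CPM in E2 sums, with a median of 3.65. The lowest control sum, column 6, lay just above the highest E2 sum, column 20. The log2 fold change was −4.39 (SE 0.82, edgeR adjusted p = 0.0343). Its reads came from 52 of 126 control cells and 12 of 42 E2 cells. Of 18 genes of MAP kinase and RSK signalling tested, Rps6ka4 alone was called, 3 had an estimate above 0 and the median was −0.43. The call was kept in 7 of the 17 fits that left out 1 library and was lost in the other 10, those without control columns 1, 2, 3, 4, 5, 8 or 10 or without 3 of the E2 columns.

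**Figure D3:**
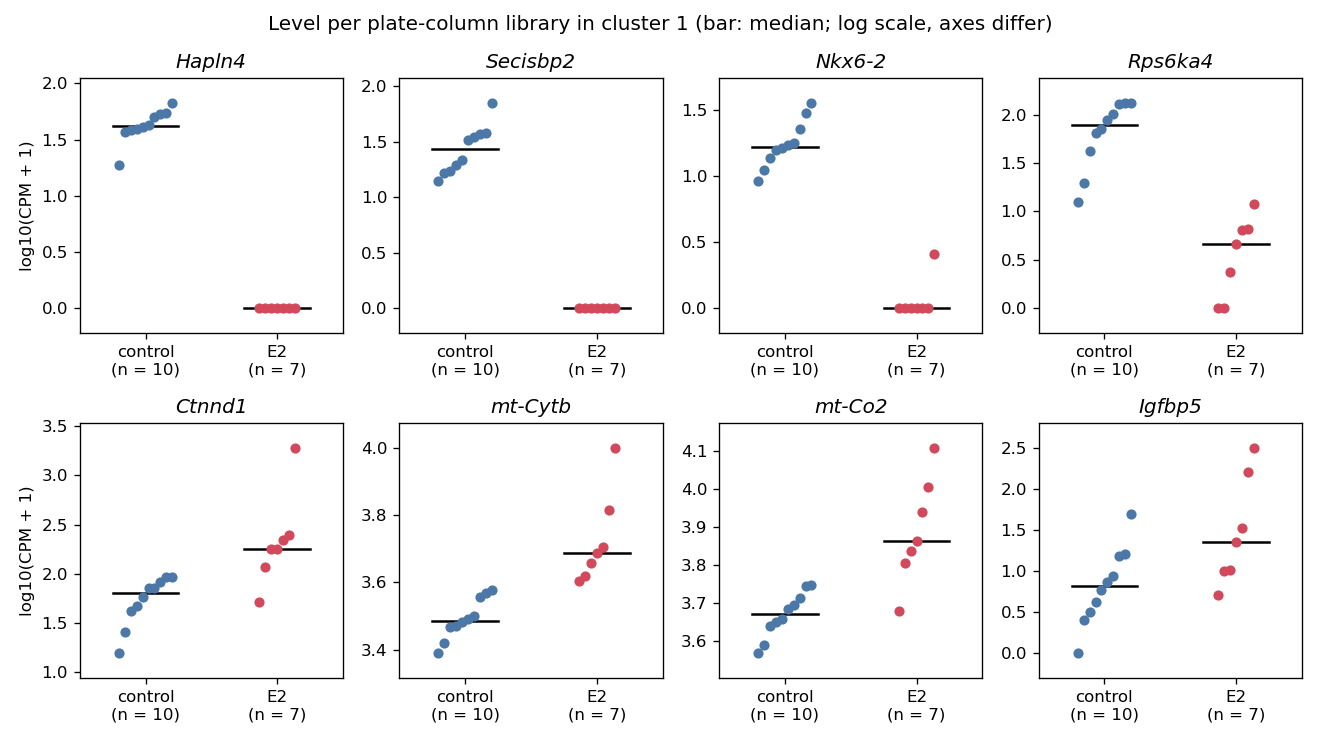
Level of the 7 genes called within cluster 1 and of Igfbp5, as log10(CPM + 1), in the 10 control (blue) and 7 E2 (red) sums. Each point is 1 plate-column library, bars are medians and the vertical axes differ between panels. Hapln4 and Secisbp2 are at 0 in all E2 sums, and the highest E2 point of Ctnnd1, at 1897 CPM, is column 15.

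Ctnnd1, which codes for the p120 catenin that holds cadherins at the cell surface, was the only called gene of higher level outside mitochondrial DNA. Ctnnd1 (ENSMUSG00000034101, chr2:84600071-84650765, minus strand) ranged from 14.4 to 92.5 CPM in control sums, with a median of 62.9, and from 50.2 to 1897 CPM in E2 sums, with a median of 177. Of the 7 E2 sums, 6 were above the control range and column 16 lay within it. The log2 fold change was 2.78 (SE 0.55, edgeR adjusted p = 0.0415). Without column 15 it was 1.46 (edgeR, adjusted p = 0.282), and the call was also lost without E2 columns 11, 19 or 20 or without any 1 control library. Reads were found in 43.9% ± 11.1 of the cells of a control library and 65.4% ± 21.5 of those of an E2 library (exact permutation, n = 10 and 7, adjusted p = 0.106 over 31 genes). Of 10 adherens junction genes tested, Ctnnd1 alone was called. Cdh11, a mesenchymal cadherin, had 100 to 223 CPM in control and 50.8 to 2008 CPM in E2 sums, the highest again in column 15 (edgeR, adjusted p = 0.327).

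Column 15, with 3 cells, set most of the other large estimates on the higher side. It had the highest E2 level of all 11 genes made up of the 3 called higher and the 8 of smallest p among the higher genes not called. For Tmem106b, a lysosomal membrane protein, it stood at 3200 CPM and the other E2 sums at 98.0 to 268 CPM. For Clip1, a protein of growing microtubule ends, it stood at 3704 CPM and the others at 146 to 426 CPM. Skiv2l went from a log2 fold change of 3.57 to 0.69 without that column, Eml4 from 3.28 to 1.05, Stxbp4 from 2.81 to 1.22 and Rab28 from 2.28 to 1.29, and Tmx4 from 3.79 to −0.32.

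Lpl, lipoprotein lipase, depended less on that column than the other 7 of these 8 genes. It ranged from 363 to 723 CPM in control sums, with a median of 578, and from 586 to 2551 CPM in E2 sums, with a median of 978. In 5 of the 7 E2 sums it was above the control range. Its log2 fold change was 1.14 (SE 0.25, edgeR adjusted p = 0.113), and 0.86 without column 15 (edgeR, adjusted p = 0.153). In responsive cells Lpl rose by a log2 fold change of 2.05 (SE 0.15, edgeR adjusted p = 7.58e-10), from 273 to 1129 CPM. The changes in the 2 populations differed by −0.96 (SE 0.29), which missed the threshold (edgeR, adjusted p = 0.168).

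Genes called with E2 in responsive cells had smaller median changes in the same direction in cluster 1, and none was called there. The responsive values chose these genes, so larger medians in responsive cells follow in part from the choice. The part of RNA from responsive cells in the cluster 1 values was not tested. Sets of this size would hold few or no calls at the background shares, so the absence of calls says little about them. Of the 87 genes called higher in responsive cells, 75 were tested in cluster 1 and none was called (background 0.036%). Their median log2 fold change was 0.45 in cluster 1 and 1.13 in responsive cells, beside −0.06 for all genes tested in cluster 1, and 13 had an unadjusted p below 0.05, all higher (background 3.78%). Of the 54 called lower, 51 were tested in cluster 1, none was called (background 0.048%), the median was −0.31 against −0.90, and 5 had an unadjusted p below 0.05, all lower (background 3.68%). To leave out genes that cluster 1 hardly expressed, the 60 higher genes whose level in control cluster 1 cells was at least 0.5 times that in responsive control cells were also taken alone, and their median was 0.41 against 1.14.

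Most of the largest responses of responsive cells were small or unresolved in cluster 1. Igfbp5, described below, had an interval above 0 in cluster 1 as well, but was not called. Cd320, a receptor for cobalamin uptake, rose from 17.6 to 127 CPM in responsive cells (log2 fold change 2.85, edgeR adjusted p = 2.23e-06) and had 33.3 ± 16.9 and 33.5 ± 42.7 CPM in cluster 1 (0.03, 95% interval −1.74 to 1.80). Tmem255a had 3.49 in responsive cells and 1.08 (−0.41 to 2.57) in cluster 1. Tagap, a GTPase activating protein, had 3.07 and 0.90 (−1.24 to 3.05), and Il4ra, the interleukin 4 receptor chain, had 2.46 and 0.86 (−0.78 to 2.49). Vcam1, an adhesion molecule, fell by 4.24 on the log2 scale in responsive cells, and in cluster 1 it had −0.03 (−1.78 to 1.71), with 60.1 ± 35.6 and 58.7 ± 106 CPM. The responsive values chose these genes, and the intervals in cluster 1 are wide. For none of Cd320, Tmem255a, Tagap, Il4ra and Vcam1 was the difference between the changes called (edgeR, adjusted p from 0.143 to 0.505).

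**Figure D4:**
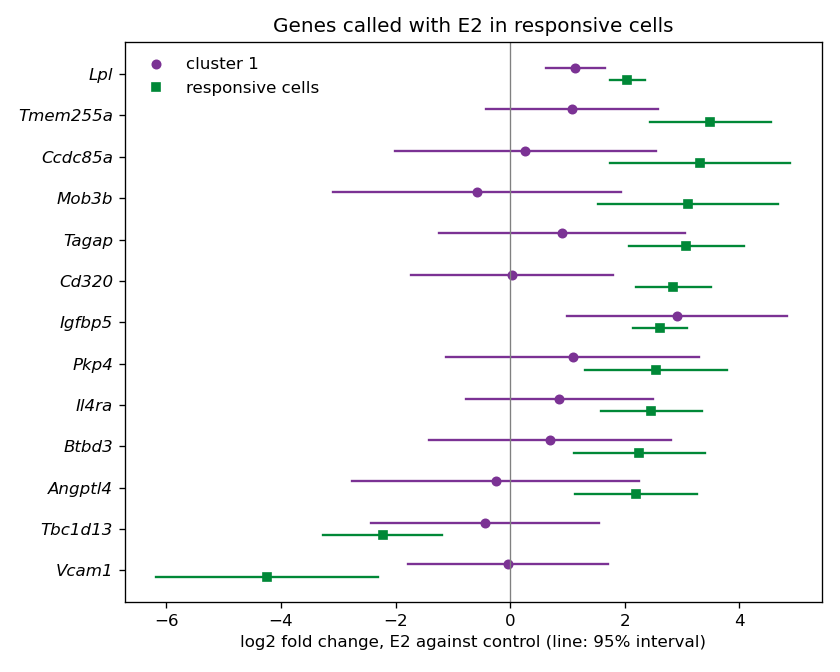
Log2 fold change of E2 against control with its 95% interval for Lpl and for the 12 genes with the largest change in responsive cells that were tested in cluster 1, in cluster 1 (purple circles) and responsive cells (green squares). The responsive values chose these genes, and in cluster 1 the intervals of Lpl and Igfbp5 alone lie above 0.

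Greb1, a coregulator of the estrogen receptor that estrogen induces, stood at 0 of 126 control cells and 1 of 42 E2 cells of cluster 1, with 1 read. In responsive cells it was found in 1 of 203 control and 47 of 218 E2 cells, at 33.9 CPM after E2. Of 14 receptors and coregulators tested in cluster 1 none was called (background 0.0839%).

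Igfbp5, a secreted protein that binds insulin-like growth factors, was seen in more cluster 1 cells after E2. It had 0 to 49.1 CPM in control sums, with a median of 5.66, and 4.20 to 318 CPM in E2 sums, with a median of 21.8. Only columns 15 and 16 were above the control range, and 1 cell of column 16 gave 64.7% of the E2 reads. The log2 fold change of 2.91 (SE 0.93) was not called (edgeR, adjusted p = 0.341). The share of cells with a read was 21.9% ± 10.4 in control and 64.5% ± 19.8 in E2 libraries (exact permutation, n = 10 and 7, adjusted p = 0.00213 over 31 genes), and after thinning each cell to 20000 reads it was 6.66% ± 8.48 and 33.2% ± 22.7 (exact permutation, adjusted p = 0.0279). With at least 2 reads per cell it was 14.4% ± 12.5 and 37.3% ± 30.9 (exact permutation, adjusted p = 0.226). Responsive cells captured in the same columns held far more Igfbp5, 168 CPM in control and 1029 CPM in E2 sums, so that the pooled cluster 1 level was 5.71% of the responsive level in control and 6.82% after E2. The part of RNA from responsive cells in the share was not tested.

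By edgeR's interaction term, 21 of 11398 genes (0.184%) answered E2 differently in cluster 1 than in responsive cells, and 1244 (10.9%) had an unadjusted p below 0.05. Of the 21, 19 had the more negative change in cluster 1 (0.167%), and Lrrc49 and Rundc3a the more positive one (0.0175%). With sums of at least 5 cells, which leaves out column 15, 17 were called and none of them was more positive. A fit with the plate column as a block takes the shared library into account. There edgeR called none, with 902 genes at an unadjusted p under 0.05. Rps6ka4 had −4.39 in cluster 1 and 0.68 in responsive cells, an interaction of −5.18 (SE 0.78, edgeR adjusted p = 0.000568). Tm7sf2, a sterol reductase, ranged from 31.3 to 87.4 CPM in control and from 0 to 19.1 CPM in E2 sums of cluster 1, and had 41.5 and 36.1 CPM in responsive cells (interaction −3.55, SE 0.72, edgeR adjusted p = 0.017). Baz1a, a subunit of chromatin remodelling complexes, had 136 ± 59 and 22.3 ± 22.9 CPM in cluster 1 and 72.5 and 72.6 CPM in responsive cells (interaction −2.61, SE 0.58, edgeR adjusted p = 0.0378). Fam208b was at 0 in all 7 E2 sums and in 1 control sum, and reached 76.4 CPM in another (at least 35.7-fold lower in these sums by counting error only, edgeR adjusted p = 0.0613 within cluster 1).

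The remaining lists held no called gene within cluster 1 apart from those above, beside 0.0839% of all genes tested. Of 28 actin and contraction genes tested, 5 had an unadjusted p below 0.05 with a higher estimate and 3 with a lower one, beside 3.78% and 3.68% of all genes tested. Actb, the cytoplasmic actin, had 3036 ± 428 CPM in control and 1763 ± 679 CPM in E2 sums, with 6 of 7 E2 sums below the control range (log2 fold change −0.78, SE 0.21, edgeR adjusted p = 0.205), and in responsive cells it had −0.45 (SE 0.09, edgeR adjusted p = 0.00973). Of 28 matrix genes tested the median was −0.24. Bgn, a small proteoglycan named after its values were seen, had 377 ± 58 and 208 ± 81 CPM (−0.85, edgeR adjusted p = 0.324), and Sparc, a collagen-binding glycoprotein, had 3537 ± 739 and 2610 ± 822 CPM (−0.44, edgeR adjusted p = 0.53).

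Cell cycle, stress and metabolic genes gave no call either, beside 0.0839% of all genes tested, a share at which lists of this size hold few or no calls. The medians were 0.07 over 18 cell cycle genes, 0.07 over 21 chaperones, 0.20 over 13 hypoxia genes, −0.06 over 16 p53 targets, −0.30 over 35 genes of glycolysis and the TCA cycle and −0.04 over 80 ribosomal protein genes. Mki67, a proliferation marker, had a read in 23.7% ± 17.9 of the cells of a control library and 6.49% ± 8.50 of those of an E2 library (exact permutation, n = 10 and 7, adjusted p = 0.109 over 31 genes). After thinning to 20000 reads it was 12.1% and 6.49%. Its level, 98.3 ± 91.1 and 107 ± 171 CPM, did not follow that share, since 3 E2 cells held all of its reads.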

How the data were processed

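The deposited table holds estimated counts for each cell, which the authors made with kallisto 0.44.0 after splitting reads by capture site, on GRCm38 transcripts (submitters' processing notes), and the annotation release is not given in the sources used here. They kept capture sites scored as 1 live cell, with 20000 to 250000 reads and genes detected within 3 median absolute deviations, and removed cells whose mitochondrial share was high by more than 3 such deviations. The deposited cell table gives the percent of reads on mitochondrial genes, the SC3 labels and the monocle pseudotime score, the last 2 made by the authors on imputed values. The imputed table was not used. The protocol counts reads, not molecules, so counting intervals cover counting error only.

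Members and gene lists were chosen with earlier results of these data known. Counts of cluster 1 cells were summed per plate column with at least 3 such cells, rounded, filtered (filterByExpr), scaled (TMM) and tested with edgeR 4.0.16 (quasi-likelihood, R 4.3.3), with Benjamini-Hochberg adjustment over all genes. Depth was 233995 to 2224038 reads per sum. The call needed an adjusted p under 0.05 together with a log2 fold change beyond 0.5 in either direction. Responsive cells were fitted in the same way, and the interaction in 1 fit of both, without pairing the sums of a column. Means over cells and shares of cells with a read were compared by exact two-sided permutation of plate columns (scipy 1.17.1), adjusted over 5 measures or 31 genes. The edgeR fit of cluster 1 was also run on simulated counts, drawn independently from the fitted spread of each gene and the totals of the sums. Such counts do not reproduce genes carried by few cells, and no result here rests on them. Alternatives were DESeq2 1.42.0, limma-voom 3.58.1, other scaling, filters, cell minimums and labels, thinning to 20000 reads and leaving out each library. Gene lists, 29 in all, are given by counts and medians.

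The text names every called gene, the 8 of smallest p in each direction among the others, called interaction genes, the 12 largest responses of responsive cells, genes in the study's text and, of each list, called members and up to 4 of highest level. Genes outside this rule are said to be chosen after their values were seen, as was Gm29216. Symbols were matched for 14135 of 14299 genes, and coordinates and sequences are those of GENCODE M21 on GRCm38.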

Additional observations from a re-analysis of the deposited data

Results flagged for a closer look

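In 40 groups of libraries tested, 8 had a highest or lowest library farther from the others than Dixon's 95% limit, and chance gives about 1 in 20 groups. In the E2 libraries of cluster 1, column 16 stood apart with 4.92% of reads on mitochondrial genes, or 4.93% on the 13 protein-coding ones. Column 15 stood apart for Ctnnd1 at 1897 CPM and for mt-Cytb at 9964 CPM, and column 18 for Nkx6-2 at 1.58 CPM, where the other E2 sums were at 0. Among control libraries, column 8 stood apart for Secisbp2 at 69.6 CPM, and column 9 for Igfbp5 at 49.1 CPM and Ptgis at 154 CPM. Column 9 also had the highest share of responsive-cell transcripts, 34.4%. Igfbp5 and Ptgis are among the 20 transcripts that make up that share, so it is not a separate observation. The part of responsive cells in these values was not tested.

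The response to E2 also set cluster 1 apart from responsive cells in some values. The mitochondrial share changed by 0.682 percentage points more in cluster 1 (exact permutation, n = 10 and 7, adjusted p = 0.0036). By edgeR's interaction term, the log2 change was more negative in cluster 1 for Rps6ka4 by −5.18 (adjusted p = 0.000568), Fam208b by −9.93 (0.000949), Secisbp2 by −9.94 (0.00184), Dynlt1b by −6.08 (0.00579), Gm10800 by −9.95 (0.0062), Tuft1 by −6.37 (0.0122), Ttll4 by −8.97 (0.017) and Tm7sf2 by −3.55 (0.017). It was more positive for Lrrc49 by 6.91 (0.017) and Rundc3a by 9.36 (0.02). Values of genes at 0 in a group depend on the prior count of the fit and are no bound. None of these genes was called with the plate column as a block.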

How the results depend on the processing

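The number of genes called within cluster 1 was 7. It was 52 with DESeq2 (18 higher, 34 lower, 6 shared with the 7), 4 with mitochondrially encoded genes left out, 1 without a filter on genes, 1 (Hapln4) with cells in cluster 1 under every labelling, and 0 with sums of at least 1 cell (edgeR, 417 genes at an unadjusted p below 0.05). Leaving out 1 library gave 1 to 9 calls. It gave 1 without E2 column 11 or 19 and 3 without column 20, and no higher gene was called without any 1 of the 10 control libraries. The 21 interaction calls became 109 with DESeq2, 13 with limma-voom, 5 after thinning and 0 with the plate column as a block. Scaling by DESeq2 size factors moved the median log2 fold change of all genes from −0.06 to 0.05, and limma-voom gave −0.38.

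Tmx4 reversed with DESeq2 (−0.23), at least 5 cells per sum (−0.32) and limma-voom (−0.20), and ranged from −0.32 to 4.05 when 1 library was left out. mt-Nd3 had −0.0078 with limma-voom and −0.021 to 0.57 with 1 library left out. mt-Atp8 had 0.14 with DESeq2 size factors, 0.14 with DESeq2, 0.0539 after thinning, 0.11 with limma-voom, 0.027 with mitochondrial genes out of the totals, and −0.11 to 0.19 with 1 library left out. The cause was not tested.

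Among cells of 60000 to 120000 reads, E2 minus control was −5847 for reads per cell and −103 for genes per cell, neither past the threshold. Genes per cell, −424 in the report, differed by −330 at 5 or more cells per column and by −499 to −330 with 1 library left out. At 20000 reads the difference was −205, not past the threshold. It was −255 with at least 1 cell per column (past the threshold), and −255 to −130 with 1 library left out (past it in 1 of 17). With at least 2 reads per cell the share of cells changed by 22.9 percentage points for Igfbp5 (no longer past the threshold), 26.8 for Ctnnd1 and −29.2 for Rps6ka4 (both now past it). The mitochondrial share kept its direction and its side of the threshold in every alternative run.

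No paired analysis was possible because the labels number control columns 1 to 10 and E2 columns 11 to 20, so that the treatments share no replicate number. The E2 side rests on 39 cells, and intervals for genes of low level are wide.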
